A study of Homo sapiens with 8 samples.

Results

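The genes described here encode 10 proteins that the liver secretes into plasma, 6 of them carriers or scavengers (ALB, TF, TTR, RBP4, HPX and HP), 3 of them protease inhibitors or parts of one (SERPINA1, AMBP and ITIH2) and 1 a mineral-binding glycoprotein (AHSG). They were taken from the count table by gene symbol, from a list that sets no threshold on measured values but was drawn up with earlier results of these libraries known, and all 10 were found among its 86369 genes. HepG2 cells, an established line from a liver carcinoma, were lipofected with siNAT10, a short interfering RNA against the RNA cytidine acetyltransferase NAT10, or with siControl, a negative control siRNA. RNA was taken at day 2, and 3' ends of polyadenylated RNA were sequenced in 4 libraries per group, of which the labels put replicates 1 and 2 in batch 1 and replicates 3 and 4 in batch 2. All libraries come from 1 cell line, and how many siRNAs made up siNAT10 is not given in the sources used here. The labels do not say whether replicates were separate cultures, so the p-values measure only the spread between these libraries, which may be technical. Levels are given as CPM, a gene's counts scaled to a common library total, with library sizes first corrected by TMM, a factor that makes the bulk of genes comparable between libraries. A log2 difference is the fitted log2 fold change, siNAT10 minus siControl.

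Hepatocytes make most plasma proteins and release them through the secretory pathway. ALB, albumin, carries fatty acids, hormones and drugs and holds the osmotic pressure of blood. TF, transferrin, carries ferric iron to cells, HP, haptoglobin, binds free haemoglobin, and HPX, hemopexin, binds free haem. TTR, transthyretin, carries thyroid hormone and binds RBP4, the retinol carrier, so that the small RBP4 is not lost through the kidney. AHSG, fetuin-A, holds calcium phosphate in solution. SERPINA1 is alpha-1-antitrypsin, the main inhibitor of neutrophil elastase. AMBP encodes a precursor that is split into alpha-1-microglobulin and bikunin, and bikunin is joined to the heavy chain encoded by ITIH2 to form an inter-alpha-inhibitor. In inflammation, HP, HPX and SERPINA1 are known to be made in larger amounts and ALB, TF, TTR, RBP4 and AHSG in smaller ones.

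Libraries held between 9731718 and 27977110 counts, and the 2 shallowest were the siNAT10 libraries of batch 2. NAT10 itself stood at 52.6 ± 17.2 CPM in siControl and 16.9 ± 5.04 CPM in siNAT10 (SD, n = 4 each), a log2 difference of -1.66 (edgeR quasi-likelihood test, adjusted p 2.0e-05). Of 11 hepatocyte markers outside the member list 10 passed the filter on low counts, with AFP the most highly counted. The markers of endothelium passed in 0 of 5 and those of macrophages and leukocytes in 2 of 5, summing to 0 to 0.797 CPM and 1.73 to 3.94 CPM per library. Of 5 stellate and fibroblast markers 2 passed, ACTA2 and PDGFRB, with COL3A1 and DCN at 0 in every library. Of 4 bile duct markers 3 passed, KRT19, EPCAM and SOX9, and their list summed to 937 to 1064 CPM in siControl and 869 to 1035 CPM in siNAT10.

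Of the 10 genes, 7 were counted well in every library. The kit reads transcript ends, so a CPM is not divided by transcript length here. How well the end of each transcript was captured can differ between genes, so the order below is one of counts in this table and not a measured order of transcript abundance. AHSG had the highest level, at 7838 CPM over the 8 libraries and rank 5 of all genes in the table, followed by ALB at 3917 CPM (rank 17). TF and AMBP came next at 1780 and 1756 CPM (ranks 58 and 59), and their siControl levels, 2086 ± 249.8 and 1916 ± 169 CPM (SD, n = 4), lay within each other's spread. ITIH2 followed at 364 CPM (rank 452), then RBP4 at 239 CPM (rank 734) and TTR at 175 CPM (rank 1029). All other neighbours in this order differed by more than their spread in siControl. Together the 10 genes took between 1.69% and 1.87% of the counts of a siControl library and between 1.31% and 1.48% of those of a siNAT10 library. Those shares did not overlap between the groups. They rest mostly on AHSG and ALB, while RBP4, ITIH2, SERPINA1, HPX and HP each overlapped between the groups. How often a sum of 10 genes separates in this way was not counted.

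The promoters of the 4 most highly counted genes are shown because these genes share a high level in HepG2 cells and lay lower in every siNAT10 library. Each line gives the 250 bases before the start of transcription, on the strand of the gene and 5' to 3', from RefSeq on GRCh38.p14, where 7 of the 10 genes had an entry. TTR, HP and ITIH2 had none. Of the 2 TF entries the one that starts where the GENCODE 44 canonical transcript starts is shown. Capitals mark matches on either strand to 4 short motifs.
ALB, chr4:73404037-73404286, plus strand: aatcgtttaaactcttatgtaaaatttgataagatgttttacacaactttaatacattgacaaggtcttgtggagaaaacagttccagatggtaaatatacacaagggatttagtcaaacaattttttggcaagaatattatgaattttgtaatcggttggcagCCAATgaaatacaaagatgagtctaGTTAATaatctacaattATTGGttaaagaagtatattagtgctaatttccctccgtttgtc
TF, chr3:133746143-133746392, plus strand: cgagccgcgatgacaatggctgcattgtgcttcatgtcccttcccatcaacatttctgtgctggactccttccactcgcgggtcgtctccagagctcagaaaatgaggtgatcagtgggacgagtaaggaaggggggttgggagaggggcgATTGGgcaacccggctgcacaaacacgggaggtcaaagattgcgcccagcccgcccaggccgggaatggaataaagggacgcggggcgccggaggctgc
AHSG, chr3:186612810-186613059, plus strand: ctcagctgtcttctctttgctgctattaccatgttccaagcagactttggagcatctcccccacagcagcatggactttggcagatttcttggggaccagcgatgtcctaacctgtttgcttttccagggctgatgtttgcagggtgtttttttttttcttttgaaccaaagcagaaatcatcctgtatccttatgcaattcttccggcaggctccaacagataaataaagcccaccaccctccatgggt
AMBP, chr9:114078301-114078550, minus strand: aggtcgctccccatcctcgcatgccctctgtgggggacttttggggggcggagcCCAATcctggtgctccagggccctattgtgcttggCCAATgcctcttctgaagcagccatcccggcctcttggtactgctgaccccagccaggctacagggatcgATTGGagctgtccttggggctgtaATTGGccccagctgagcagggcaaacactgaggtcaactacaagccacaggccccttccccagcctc

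The first motif searched was GTTAAT, an arm of the site of the liver factor HNF1. The others were the CCAAT box, spelled as its name, the TATA box in the form TATAAA, and a core of the sites of FOXA factors in the form TGTTTAC. No match overlapped another in these 4 windows. The ALB window held GTTAAT at positions -61 to -56 from the start, CCAAT at -86 to -82 and CCAAT on the opposite strand at -44 to -40. TF held 1 CCAAT, on the opposite strand at -99 to -95. AMBP held CCAAT 4 times, at -196 and -161 on its own strand and at -91 and -67 on the opposite one, each position being the first base of the match. The AHSG window held none of the 4 strings. Over all 35116 RefSeq windows of 250 bases, 6.2% held the HNF1 arm, 32.0% the CCAAT box, 10.7% the TATA box and 3.0% the FOXA core. A match of so few letters is a description of the sequence and not a binding site.

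The other 3 genes had low counts, and their response to siNAT10 cannot be judged. HP and HPX were near the lower end of detection, while SERPINA1, at 29 to 183 counts, varied widely between libraries. Positions here and below are those of GENCODE 44 on GRCh38. HP (ENSG00000257017; chromosome 16, 72054505 to 72061055, plus strand) had 3, 3, 1 and 2 counts in the siControl libraries (replicates 1 to 4) and 2, 0, 1 and 2 in the siNAT10 libraries. No library exceeded 3 counts, the limit that a count of 0 allows, so HP failed the filter and has no fold change. HPR, a near-identical copy of HP beside it on chromosome 16, had 0 counts in 7 libraries and 1 in the last, and how reads that match both were counted is not given in the sources used here. HPX (ENSG00000110169; chromosome 11, 6431049 to 6442617, minus strand) had 10, 13, 28 and 4 counts in siControl and 11, 30, 17 and 22 in siNAT10. It passed the filter, but the groups overlapped, and its fitted log2 fold change of 0.84 had a 95% interval from -0.09 to 1.77 (edgeR adjusted p 0.37).

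SERPINA1 (ENSG00000197249; chromosome 14, 94376747 to 94390693, minus strand) had 86, 39, 108 and 183 counts in siControl and 62, 49, 29 and 89 in siNAT10, or 3.13, 2.24, 5.06 and 13.2 CPM against 3.39, 1.70, 2.27 and 8.70 CPM. The highest library of each group was replicate 4, and the groups overlapped over most of their range. The log2 difference was -0.46, and its 95% interval ran from -1.24 to 0.32 (edgeR adjusted p 0.61). Without siControl replicate 4 it was -0.04 and without siNAT10 replicate 3 it was -0.09, while without siNAT10 replicate 4 it was -0.81. In the annotation used for positions no exon of another gene lies over the last 500 exonic bases of any of the 10 genes. That annotation matched only 61458 of the 86369 identifiers counted, so an overlap with a gene outside it could not be seen. Low rows were also found for genes chosen after their values were seen: SURF4, a cargo receptor of the secretory pathway used by most cells, had 0 to 11 counts per library, and APOB, a defining hepatocyte gene, had 0 to 7. A low row in this table is therefore given as a low count and not as a statement that the gene is silent.

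**Figure D1:**
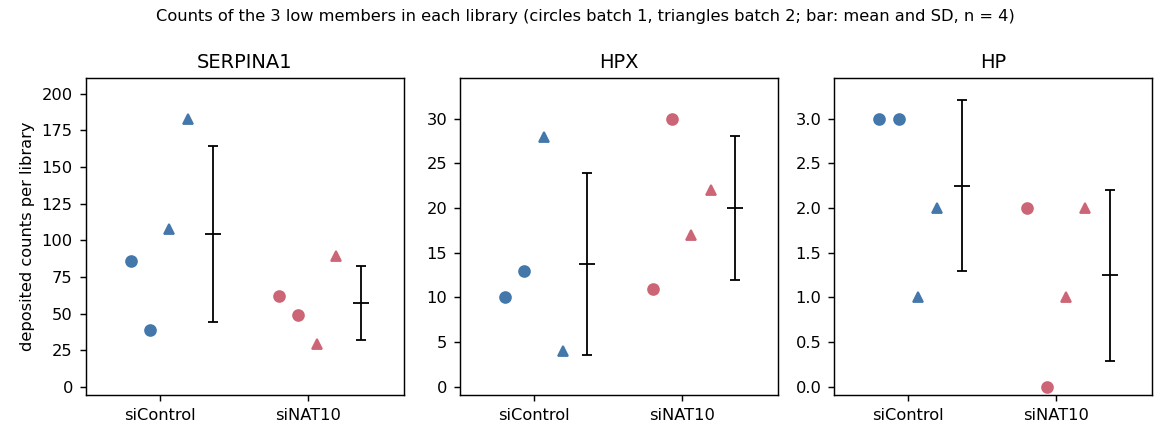
Deposited counts per library (vertical axis, linear) for SERPINA1, HPX and HP in the 4 siControl and 4 siNAT10 libraries, with batch 1 as circles, batch 2 as triangles and bars for the mean and SD of 4 libraries. HP never exceeds 3 counts, HPX runs from 4 to 30 counts and SERPINA1 from 29 to 183, with overlapping groups in each panel.

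The main comparison asked whether NAT10 knockdown altered these transcripts. TF fell, and 4 further abundant genes, AHSG, ALB, TTR and AMBP, were lower in every siNAT10 library than in every siControl library without passing the test, at 76% to 83% of the siControl level. With TF, 5 of the 9 genes tested lay below all siControl libraries in this way, where 3.15% of all tested genes did so. RBP4 and ITIH2 overlapped between the groups. Of the 9 genes tested 1 was called lower and 0 higher at an adjusted p under 0.05 (edgeR quasi-likelihood test with batch as a term), where 1.46% of all 13840 tested genes were called lower, 0.816% higher and 2.28% in either direction. In bulk libraries a lower level in every cell and fewer cells that make the transcript cannot be told apart.

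TF (ENSG00000091513; chromosome 3, 133746040 to 133796641, plus strand) stood at 1950, 1830, 2397 and 2167 CPM in siControl and at 1335, 1547, 1429 and 1586 CPM in siNAT10. Every siNAT10 library lay below every siControl library. The means were 2086 ± 249.8 and 1474 ± 114 CPM (SD, n = 4 each), and the fitted log2 difference was -0.49 ± 0.11 (SE; edgeR adjusted p 0.023), or 71.0% of the siControl level with a 95% interval from 60.7% to 83.0%. Taken by batch, the log2 difference came to -0.39 in batch 1 and to -0.59 in batch 2, and neither batch alone passed the test (edgeR adjusted p 0.27 and 0.48). The call was also lost without the batch term (0.23) and in 5 of the 8 fits that left out 1 library: without siControl replicate 1 (0.080) or 3 (0.053) and without siNAT10 replicate 1 (0.080), 2 (0.057) or 3 (0.091). Over these 8 fits the log2 difference ran from -0.55 to -0.44. With all libraries thinned to the smallest total it was -0.49 and stayed called (edgeR adjusted p 0.027).

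ALB (ENSG00000163631; chromosome 4, 73397114 to 73421482, plus strand) stood at 4627, 4271, 4481 and 4266 CPM in siControl and at 3533, 3644, 3279 and 3232 CPM in siNAT10. The siControl libraries of both batches were close to each other, and all 4 siNAT10 libraries lay below them. The means were 4411 ± 175 and 3422 ± 198 CPM (SD, n = 4), a log2 difference of -0.37 ± 0.10 (SE; edgeR adjusted p 0.072), or 77.5% of siControl with a 95% interval from 66.8% to 89.9%. In the DESeq2 Wald test, and in edgeR with no filter on low counts, ALB was called (adjusted p 0.0024 and 0.013). Of the 8 fits that left out 1 library, 0 called it (edgeR adjusted p 0.097 to 0.18). Nor was it called without the batch term (0.31) or in batch 1 or batch 2 alone (0.44 and 0.66).

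AHSG (ENSG00000145192; chromosome 3, 186613060 to 186621318, plus strand) stood at 9319, 8455, 9918 and 7900 CPM in siControl and at 7680, 6809, 7168 and 5458 CPM in siNAT10. The lowest library of all was siNAT10 replicate 4, the shallowest, and the groups did not overlap. The means were 8898 ± 896 and 6779 ± 950.1 CPM (SD, n = 4), a log2 difference of -0.40 ± 0.13 (SE; edgeR adjusted p 0.11). Without siNAT10 replicate 4 the log2 difference was -0.30, and with all libraries thinned to the smallest total it was -0.38. Like ALB, AHSG was called by DESeq2 and with no filter (adjusted p 0.035 and 0.0030). It was called in 0 of the 8 fits that left out 1 library (edgeR adjusted p 0.13 to 0.28). The call was also absent without the batch term (0.42) and in batch 1 or batch 2 alone (0.50 and 0.66). With no filter the edgeR adjusted p of NAT10 was 1.6e-32, against 2.0e-05 in the main fit, at nearly the same log2 difference. The DESeq2 Wald test gave NAT10 an adjusted p of 1.1e-23, also at nearly the same log2 difference. Adjusted p-values of these fits are therefore not comparable with those of the main fit.

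**Figure D2:**
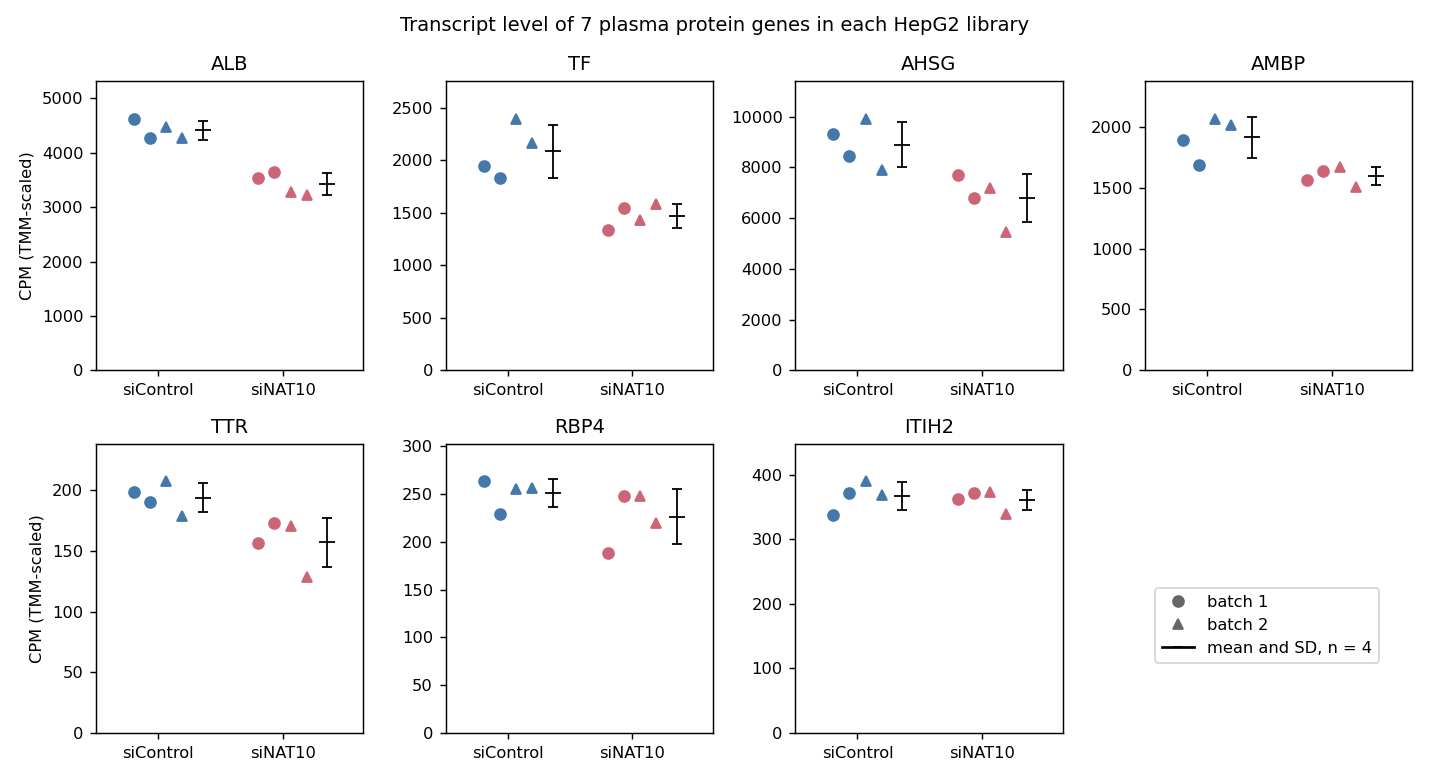
TMM-scaled CPM (vertical axes, linear, from 0) of the 7 well-counted genes in each library, siControl in blue and siNAT10 in red, batch 1 as circles, batch 2 as triangles, bars for mean and SD of 4 libraries. The groups are separate for ALB, TF, AHSG, AMBP and TTR and overlap for RBP4 and ITIH2.

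The 2 partners in retinol transport differed in how clearly the groups separated. TTR (ENSG00000118271; chromosome 18, 31557009 to 31598833, plus strand) stood at 199, 190.4, 207 and 179 CPM in siControl and at 156, 173, 171 and 129 CPM in siNAT10. Its groups did not overlap, although siControl replicate 4 and siNAT10 replicate 2 were close. The means were 194 ± 12.1 and 157 ± 20.3 CPM (SD, n = 4), a log2 difference of -0.30 (edgeR adjusted p 0.17). Its 95% interval ran from 69.0% to 95.0% of siControl. RBP4 (ENSG00000138207; chromosome 10, 93591687 to 93601744, minus strand) stood at 263, 229, 256 and 257 CPM in siControl and at 188, 248, 248 and 220.1 CPM in siNAT10. The siNAT10 libraries of replicates 2 and 3 lay within the siControl range. Its log2 fold change was -0.15 (edgeR adjusted p 0.54), with a 95% interval from 76.8% to 106% of siControl. The intervals of TTR and RBP4 overlap, and a difference between their responses was not tested.

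AMBP and ITIH2, which encode 2 parts of an inter-alpha-inhibitor, also differed in how clearly the groups separated. AMBP (ENSG00000106927; chromosome 9, 114060127 to 114078328, minus strand) stood at 1891, 1689, 2070 and 2015 CPM in siControl and at 1564, 1639, 1671 and 1508 CPM in siNAT10, which are separate by a small margin between siControl replicate 2 and siNAT10 replicate 3. The means were 1916 ± 169 and 1595 ± 73.5 CPM (SD, n = 4), a log2 difference of -0.26 (edgeR adjusted p 0.22). Its 95% interval ran from 71.7% to 97.1% of siControl. ITIH2 (ENSG00000151655; chromosome 10, 7703316 to 7749520, plus strand) stood at 337, 371, 389 and 368 CPM in siControl and at 362, 371, 373 and 339 CPM in siNAT10, with the groups lying over each other. Its log2 fold change was -0.02 (edgeR adjusted p 0.95), with a 95% interval from 85.6% to 114% of siControl, so a fall as large as the TF estimate lies outside the interval. The sign of the ITIH2 value was positive in 4 alternatives, all within 0.06 of 0. The intervals of AMBP and ITIH2 overlap, and a difference between the responses of these 2 genes was not tested.

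Over the 9 genes tested the median log2 fold change was -0.30, with 8 of 9 fitted below 0, beside a median of -0.0024 over all tested genes. With that median close to 0, fitted values below 0 were common among all genes too. The 8 include SERPINA1, whose response cannot be judged, and ITIH2, at -0.02 and positive in some alternatives. HPX, the gene fitted above 0, cannot be judged either. In 5 of the 9 every siNAT10 library lay below both siControl libraries of its own batch, where 7.9% of all tested genes did so, and the same 5 lay below all 4 siControl libraries, where 3.15% did so. These counts describe genes that were proposed with earlier results of these libraries known and carry no test. Within batches the median was -0.17 in batch 1 and -0.37 in batch 2.

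**Figure D3:**
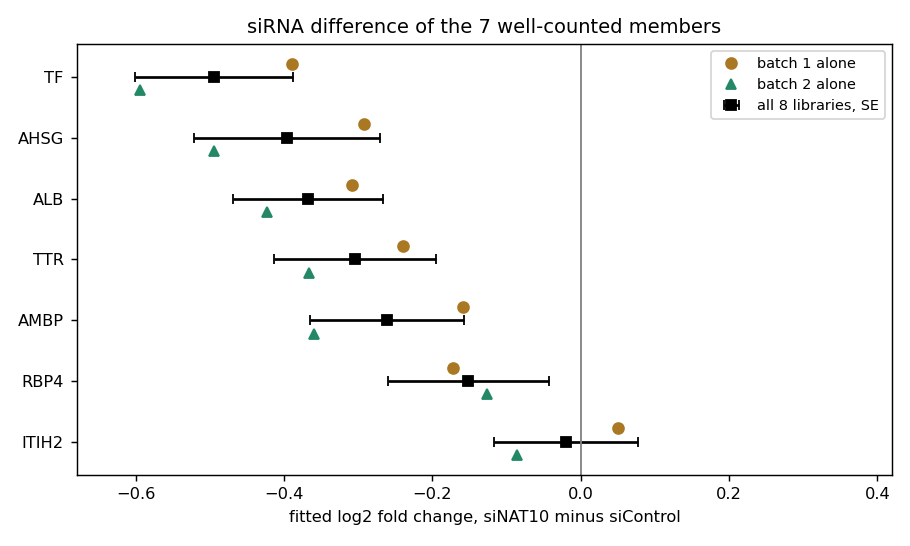
Fitted log2 fold change, siNAT10 minus siControl (horizontal axis), for the 7 well-counted genes from all 8 libraries (squares, bars for the standard error) and from each batch alone (circles batch 1, triangles batch 2). TF, AHSG, ALB, TTR and AMBP lie below 0 in both batches, and ITIH2 lies on both sides of 0.

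**Figure D4:**
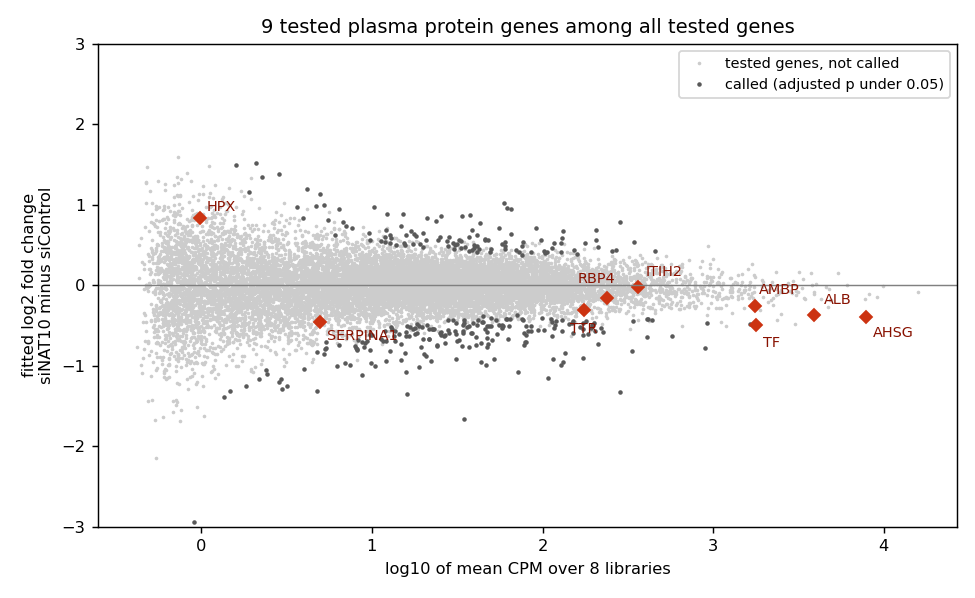
Fitted log2 fold change (vertical axis) against log10 of the mean CPM (horizontal axis) for all 13840 tested genes, called genes in dark grey and the 9 tested plasma protein genes as red diamonds. AHSG, ALB, TF and AMBP sit at the abundant end just below 0, and HPX sits among the scattered low genes.

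The batches were then compared. The siRNA effect differed between batches for 0 of the 9 genes in the interaction test (edgeR, adjusted p under 0.05), where 0% of all tested genes were called. At an unadjusted p under 0.05 the interaction took in 0 of the 9 and 421 of all tested genes (3.04%). Between batches, with the siRNA as a term, 1 of the 9 was called, where 25.3% of all tested genes were. That gene was SERPINA1, higher in batch 2 by 1.44 on the log2 scale ± 0.37 (SE; edgeR adjusted p 0.0098). The call rested on siControl replicate 4, without which the difference was 1.02 (edgeR adjusted p 0.057). The 7 well-counted genes differed between batches by -0.10 (AHSG) to 0.17 (TF) on the log2 scale, where the median size over all tested genes was 0.26.

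Genes that handle the same cargo were read from lists written from general knowledge, but with earlier results of these libraries known. The 10 genes themselves were left out. Iron and haem handling had 3 called genes among 14 tested, 1 higher and 2 lower, with a median log2 fold change of 0.10. Over all tested genes 0.816% were called higher, 1.46% lower and 2.28% in either direction. CP, ceruloplasmin, the plasma ferroxidase that lets iron load onto transferrin, stood at 71.8, 57.8, 56.7 and 63.1 CPM in siControl and at 35.4, 28.3, 26.2 and 36.5 CPM in siNAT10. All siNAT10 libraries lay well below all siControl libraries, and the log2 difference was -0.99 ± 0.13 (SE; edgeR adjusted p 5.7e-04). CP stayed called in all 8 fits that left out 1 library (-1.09 to -0.90) and without the batch term, but not in batch 2 alone (edgeR adjusted p 0.22). TFR2, the second transferrin receptor and an iron sensor of hepatocytes, fell from 13.9 ± 2.46 to 8.80 ± 1.94 CPM (SD, n = 4), a log2 difference of -0.67 (edgeR adjusted p 0.023). IREB2, an RNA-binding regulator of ferritin and transferrin receptor messages, rose from 72.9 ± 5.45 to 97.4 ± 6.93 CPM (SD, n = 4), a log2 difference of 0.42 (edgeR adjusted p 0.028). TFR2 was no longer called in 5 of the 8 leave-one-out fits (adjusted p up to 0.10, without siControl replicate 1 or 3 or siNAT10 replicate 1, 2 or 3). For IREB2 this held in 6 of the 8, the exceptions being those without siControl replicate 3 or siNAT10 replicate 4 (adjusted p up to 0.12). Both calls were also lost without the batch term (edgeR adjusted p 0.34 for TFR2 and 0.30 for IREB2) and in each batch alone (0.13 and 0.15 in batch 1, 0.52 and 0.66 in batch 2).

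TFRC, the main receptor for iron-loaded transferrin, was the most highly counted gene of that list and was not called, at 329 ± 27.8 and 297 ± 17.4 CPM (SD, n = 4; edgeR adjusted p 0.50). The acute-phase proteins had 1 called gene, CP again, among 6 tested, where 2.28% of all tested genes were called, and a median of -0.23. Here and in the next list, 1 call describes that gene and not the list. Signalling genes of the acute phase had 1 called gene among 10, IL1R1, a receptor for interleukin-1, which rose by a log2 difference of 0.47 (edgeR adjusted p 0.037), and a median of 0.10. IL1R1 was no longer called in 6 of the 8 leave-one-out fits, the exceptions being those without siControl replicate 3 or siNAT10 replicate 4, with an adjusted p up to 0.13. Its call was also lost without the batch term (edgeR adjusted p 0.62) and in batch 1 or batch 2 alone (0.23 and 0.56).

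The remaining lists had 0 called genes. Plasma serpins outside the list had 9 tested with a median log2 fold change of -0.13. AFP, the fetal relative of albumin, was the 1 tested gene of its family beside ALB, at 1668 ± 180.4 and 1374 ± 97.9 CPM (SD, n = 4) with a log2 difference of -0.28 (edgeR adjusted p 0.19). The inter-alpha-inhibitor relatives had 4 tested with a median of 0.0087, and ITIH3, the most highly counted, was at -0.13. Retinol and thyroid hormone genes had 6 tested with a median of -0.08. Genes of export from the endoplasmic reticulum had 23 tested with a median of 0.06, and KDELR1 was the most highly counted. Hepatocyte transcription factors had 11 tested with a median of 0.09, and HNF4A, the most highly counted, stood at 357 ± 109 and 375 ± 88.0 CPM (SD, n = 4; edgeR adjusted p 0.74). The cystatin-domain list had 2 tested, at a median of -0.15, with CST3 the most highly counted.

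Across the 8 libraries the called gene TF had a profile of log2 CPM most like those of TEX10 and PJA1, with a Pearson r of 0.97 and 0.96, out of 8660 genes of at least 8 CPM. Neither was called itself (log2 fold changes of -0.25 and -0.18). Among the 9 genes tested TF was most like AMBP (r 0.90), TTR most like AHSG (0.93), and ALB most like AHSG (0.87). ITIH2 reached at most 0.48, with TTR. These values are over 8 libraries that share the siRNA groups, batches and depths, and are given as a description.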

How the data were processed

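Per the labels and the submitters' processing notes, the authors made the deposited counts per gene with STAR 2.7.9a on GRCh38 and featureCounts, with Trim Galore 0.6.10 and cutadapt 3.5 also named. Annotation release, strand setting and handling of shared reads are not given in the sources used here. The QuantSeq kit is named as forward in the series text and reverse in the sample protocols. Symbols came from GENCODE 44 (61458 of 86369 identifiers matched).

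Genes kept by filterByExpr (minimum count 10) were fitted in edgeR 4.0.16 (R 4.3.3) with TMM scaling, batch and siRNA as additive terms, and the quasi-likelihood F test over all 13840 tested genes, with Benjamini-Hochberg adjustment. Log2 CPM for profiles used a prior count of 2. Alternatives included the DESeq2 1.42.0 Wald test, other scalings and filters, thinning to the smallest library, single batches and each library left out. Leave-one-out values for SERPINA1 between batches and all alternatives for NAT10 and called list genes were chosen after seeing the data.

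Same-numbered libraries deviated together (correlations across genes of 0.39, 0.38, 0.45 and 0.36 for replicates 1 to 4), but so did differently numbered libraries of the same batch (0.14 to 0.50), so the pairing is largely that of the batch in the labels. Named genes were the 10 members, NAT10, up to 4 called genes per list or otherwise its most abundant gene, and for each called member the 2 genes with the most similar profile. A gene that this rule names is not reported here. Members, lists and tests were chosen with earlier results of these data known. No unique molecular identifiers are named, so limits on counts cover counting error only.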

Additional observations from a re-analysis of the deposited data

How the results depend on the processing

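The number of the 10 genes called lower was 1 with RLE size factors, library size alone, a mean count of at least 10, thinning and the replicate block. It was 3 in DESeq2 and with no filter on low counts, and 0 without the batch term, in batch 1 alone or in batch 2 alone. Over all genes DESeq2 called 345 of 13840 lower and the fit with no filter 368 of 27941, against 202 of 13840 in the main fit. The number of the 10 genes called lower ranged from 0 to 1 when 1 library was left out, and 0 were called higher in any fit. Their median log2 fold change was -0.17 in batch 1 alone and ran from -0.33 to -0.21 over the leave-one-out fits. ITIH2 turned positive with library size alone (0.020), in batch 1 alone (0.051), without siControl replicate 3 (0.018) and without siNAT10 replicate 4 (0.024), its leave-one-out range being -0.061 to 0.024. The batch-by-siRNA term reached the threshold for none of these genes with RLE size factors, library size alone, either filter or thinning (0 each).

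Over all genes the counts called lower and higher in the main fit were 202 and 113 of 13840 tested. Of the same 13840 they were 14 and 1 without the batch term, 345 and 256 in DESeq2, and 182 and 116 with RLE size factors. With no filter they were 368 and 227 of 27941, with a mean count of at least 10 198 and 113 of 13919, and with thinning 174 and 98 of 12682. Batch 1 alone gave 110 and 63 of 14521, and batch 2 alone 0 and 0 of 13433. The replicate block gave 279 and 175 of 13840 and changed no call of the 10 genes. The leave-one-out fits gave 47 to 179 lower and 28 to 107 higher, the fewest without siNAT10 replicate 2. Library size alone gave 149 and 138 of 13840, and moved the median of all genes to 0.037. HP gave no value in any fit with the filter, and HPX, at 4 to 30 counts, is limited by depth. SERPINA1, at 29 to 183 counts, varied widely between libraries, and thinning to the smallest library took its standard error from 0.37 to 0.39.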

Other observations

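Ratios of counts within a library do not depend on library scaling. The ratio of AMBP to ITIH2, whose products are joined in 1 plasma inhibitor, was 5.61, 4.55, 5.32 and 5.48 in siControl and 4.33, 4.42, 4.48 and 4.44 in siNAT10, without overlap. The margin, between siControl replicate 2 and siNAT10 replicate 3, was small. With ITIH2 at a log2 fold change of -0.02, the ratio largely restates that of AMBP (-0.26, edgeR adjusted p 0.22), which was not called. How many pairs of genes separate in this way was not counted. The ratio of AHSG to ALB ran from 1.85 to 2.21 in siControl and from 1.69 to 2.19 in siNAT10, with the groups overlapping. The ratio of ALB to AFP was 2.49 and 2.40 in siControl and 2.63 and 2.43 in siNAT10 in batch 1, and 2.88 and 2.89 against 2.36 and 2.56 in batch 2, so the groups separated only in batch 2. The ratio of TTR to RBP4 ran from 0.698 to 0.831 in siControl and from 0.585 to 0.832 in siNAT10. The ratio of TF to TFRC, the receptor of its product, ran from 5.20 to 8.23 in siControl and from 4.14 to 5.51 in siNAT10, with overlapping groups. These 5 ratios were not tested.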
